A study of Mus musculus with 12 samples.

Results

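The lysyl oxidases are a family of secreted enzymes, encoded in the mouse by Lox and the lysyl oxidase-like genes Loxl1, Loxl2, Loxl3 and Loxl4. Every single-gene probe set of these genes was taken, a probe set being the group of short DNA probes on the array that together measure a transcript. This gave 4 of the 18193 genes measured and 8 of 34945 single-gene probe sets: 3 for Lox, 2 for Loxl1, 1 for Loxl3 and 2 for Loxl4. The 2 probe sets listed for Loxl2 also name a second gene, so Loxl2 is not described. The family was chosen by its log2 fold changes between these same 2 groups, so its own differences between the groups are given as a description, without a p-value. Calls of its probe sets, in the main fit and in other fits, belong to that description and lend it no support.

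The RNA came from brown adipose tissue, the fat depot that produces heat, of leptin-deficient ob/ob males aged 3 months on normal chow. One group of 6 mice had received 1 intraperitoneal dose of 1 mg/kg of an agonistic antibody to FGFR1, a receptor for fibroblast growth factors, and 6 pair-fed mice had received a control IgG. Pair-feeding matches food intake between the groups. Tissue was taken on day 4, and each mouse was measured on its own array. All mice lack leptin, the antibody acted on the whole animal, and the dose of the control IgG is not given in the sources used here. The values are log2 expression after RMA, which corrects background, scales the arrays to each other and summarises the probes of a probe set.

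Lysyl oxidases are copper-dependent amine oxidases that turn lysine and hydroxylysine residues of collagens and elastin into reactive aldehydes. These condense into the covalent cross-links that make collagen fibrils and elastic fibres insoluble and stiff. Lox is released as a proenzyme that procollagen C-proteinases such as Bmp1 cleave, Loxl1 is tied to the upkeep of elastic fibres, and Loxl2 to Loxl4 carry scavenger receptor domains ahead of the catalytic domain. In fat, Lox is known as a hypoxia-responsive gene of the collagen-rich matrix that forms in obesity.

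The arrays resembled each other closely, with medians between 7.188 and 7.227 and a mean correlation with their own group between 0.9932 and 0.9962. Of the 12 brown adipocyte markers measured, all lay above the overall median of the arrays, as did all skeletal muscle, endothelial and macrophage markers. Ucp1 and Cidea, at 14.52 and 14.37 in controls, were among the brightest of all probe sets, which goes with the tissue label. Skeletal muscle markers were also bright and uneven: their mean was 7.04 in anti-FGFR1 replicate 5 and 9.659 in control IgG replicate 6, against 10.53 to 11.89 on the other arrays. The log2 difference between 3' and 5' control probe sets, a sign of RNA integrity, was taken as the mean of Actb and Gapdh. It averaged 0.1612 (SD 0.0306) over the 6 control arrays and 0.2029 (SD 0.0266) over the 6 anti-FGFR1 arrays (two-sided exact permutation p = 0.037). Actb alone gave 0.3353 and 0.4046 (two-sided exact permutation p = 0.043). Gapdh alone differed little, at -0.013 and 0.0012 (two-sided exact permutation p = 0.51). The 3' to 5' covariate used below is the mean of both. Because it differs between the groups, a fit with it cannot cleanly separate it from the treatment. A call can then be lost with a wider SE although the fold change is larger, as for Loxl3 below. Whether RNA integrity accounts for any difference was not tested.

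Within the family, Lox was lower after anti-FGFR1 while Loxl1 and Loxl3 were modestly higher, and Loxl4 differed little. In limma's fit over all single-gene probe sets (Benjamini-Hochberg adjusted p under 0.05), 2 of the 8 probe sets, both of Lox, were called lower and 2 higher. Over all probe sets 6.9% were called, 4.75% lower and 2.15% higher. The median log2 fold change of the 8 was 0.06, against 0.0019 over all probe sets, a median that mixes the opposite directions of the members.

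Lox has a pair of bright probe sets, brighter than 95.1% of all probe sets each. On probe set 1448228_at the control arrays ran from 11.42 through a median of 11.74 to 11.84, and the anti-FGFR1 arrays from 10.54 through 10.75 to 11.05. The lowest control lay 0.37 above the highest anti-FGFR1 array, so the groups did not overlap. The means were 11.7 ± 0.15 and 10.77 ± 0.18 (SD, n = 6 per group), a log2 difference of -0.93 ± 0.09 (SE), or 1.91-fold lower. It had rank 27 from the lowest among the fold changes of the 34945 probe sets.

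On the other bright Lox probe set, 1416121_at, the controls ran from 11.4 through 11.6 to 11.65 and the anti-FGFR1 arrays from 10.67 through 10.92 to 11.08. Again all 6 anti-FGFR1 arrays were below all controls, with a gap of 0.32. The log2 fold change was -0.68 ± 0.08 (SE), or 1.60-fold lower. The groups failed to overlap in the lower direction for 3.33% of all probe sets and in the higher direction for 1.23%, where the family had 2 and 0. Those 2 are the bright Lox probe sets, listed for the same sequence, so they read the same gene in the same RNA.

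The third Lox probe set, 1437903_at, was dim, brighter than 30.7% of all probe sets, and did not separate the groups. Its controls ran from 6.36 through 6.62 to 6.70 and its anti-FGFR1 arrays from 6.26 through 6.33 to 6.81, where replicate 5 was the highest of all 12 arrays. The log2 fold change was -0.14 ± 0.09 (SE). Across the 12 arrays, with each group centred on its mean, the bright probe sets correlated with each other at r = 0.768 and with the dim one at -0.17 and 0.199, a description over arrays that share the same RNA.

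**Figure D1:**
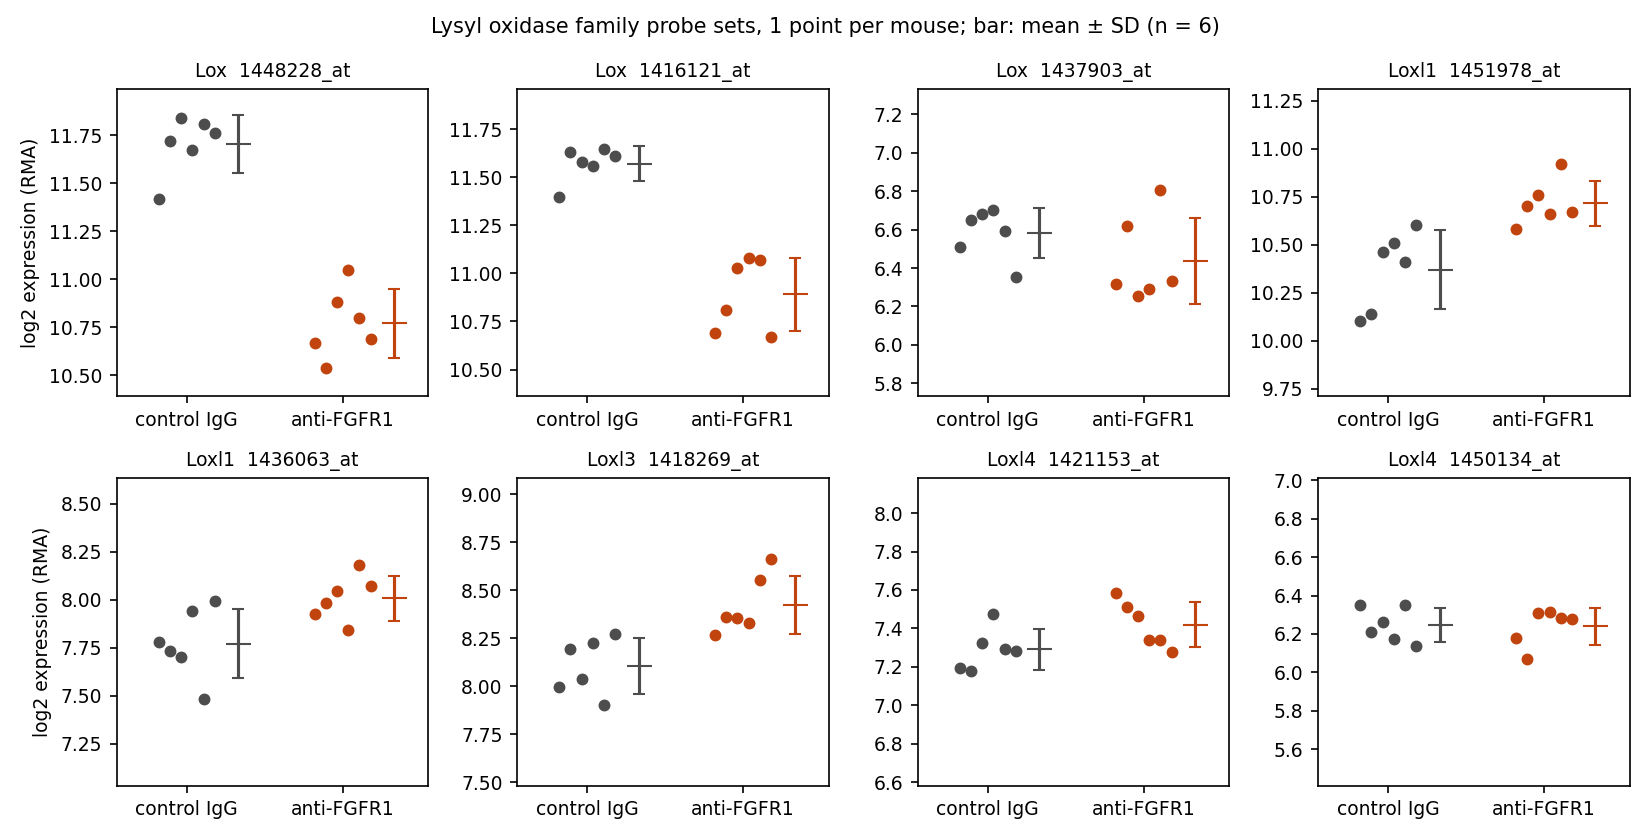
Log2 expression of the 8 lysyl oxidase family probe sets in each mouse, control IgG in grey and anti-FGFR1 in orange, with mean ± SD (n = 6) beside the points and the same span of 1.6 log2 units on every axis. The groups are apart on both bright Lox probe sets, touch on Loxl1 1451978_at and Loxl3, and overlap on the other probe sets.

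Loxl1 was higher on both of its probe sets, though only the brighter one was called. On 1451978_at the controls ran from 10.1 through 10.44 to 10.6 and the anti-FGFR1 arrays from 10.58 through 10.69 to 10.92. Of the anti-FGFR1 arrays 5 lay above all controls, and the sixth, replicate 1, was 0.02 below the highest control, replicate 6. The log2 fold change was 0.34 ± 0.09 (SE), a 1.27-fold difference. The probe set was no longer called when replicate 2 of the controls was dropped (0.30), or replicate 3 (0.33) or 5 (0.30) of the treated mice.

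The dimmer Loxl1 probe set, 1436063_at, ran from 7.48 through 7.76 to 7.99 in controls and from 7.84 through 8.01 to 8.18 after anti-FGFR1. Here 3 of 6 anti-FGFR1 arrays were above all controls, and the log2 fold change was 0.24 ± 0.08 (SE). It was called without control IgG replicate 6 (0.28). Both probe sets thus pointed the same way, and their centred values correlated at r = 0.467 over the 12 arrays.

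Loxl3, known from cartilage and palate development, has 1 probe set, 1418269_at. Its controls ran from 7.90 through 8.12 to 8.27 and its anti-FGFR1 arrays from 8.27 through 8.36 to 8.67. As for Loxl1, 5 of 6 anti-FGFR1 arrays were above all controls, and the lowest, replicate 1, met the highest control, replicate 6, within 0.0018. The log2 fold change was 0.32 ± 0.08 (SE), a 1.25-fold difference. It was not called without control IgG replicate 3 (0.30), control IgG replicate 5 (0.28) or the anti-FGFR1 replicates 5 (0.29) and 6 (0.27) in turn, nor with the 3' to 5' difference as a covariate (0.37 ± 0.10, SE). Without anti-FGFR1 replicate 5 neither Loxl1 nor Loxl3 was called, so the count of higher probe sets was 0.

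For Loxl4, the remaining scavenger receptor member, neither probe set was called. On 1421153_at the controls ran from 7.18 through 7.29 to 7.47 and the anti-FGFR1 arrays from 7.28 through 7.40 to 7.58, with 2 of 6 above all controls. The log2 fold change was 0.13 ± 0.06 (SE). On 1450134_at, brighter than only 26% of all probe sets, the controls ran from 6.14 to 6.35 and the anti-FGFR1 arrays from 6.07 to 6.31, at -0.01 ± 0.06 (SE). The centred values of the Loxl4 probe sets correlated at r = -0.519, so they did not track each other from mouse to mouse.

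Whether mice with more of one member had more of another was asked within each group, which the choice of the family did not use. Each member was read from its brightest probe set, giving 12 relations (6 arrays each). By two-sided exact permutation tests 0 passed after Benjamini-Hochberg adjustment over the 12, and 0 were under 0.05 unadjusted by Pearson or Spearman. The strongest was Loxl3 against Loxl4 after anti-FGFR1 (r = -0.794, exact permutation p = 0.0528, adjusted 0.525; rho = -0.771, exact permutation p = 0.103, adjusted 0.725), and r was -0.456 without the 2 arrays farthest from the median of Loxl3. Lox and Loxl1 gave r = 0.631 in controls (rho = 0.371, exact permutation p = 0.164 and 0.497, adjusted 0.656 and 0.846) and 0.155 after anti-FGFR1 (rho = 0.143, exact permutation p = 0.762 and 0.803, adjusted 0.853 and 0.876). Without the 2 arrays farthest from the Lox median, r was 0.0529 and 0.67.

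**Figure D2:**
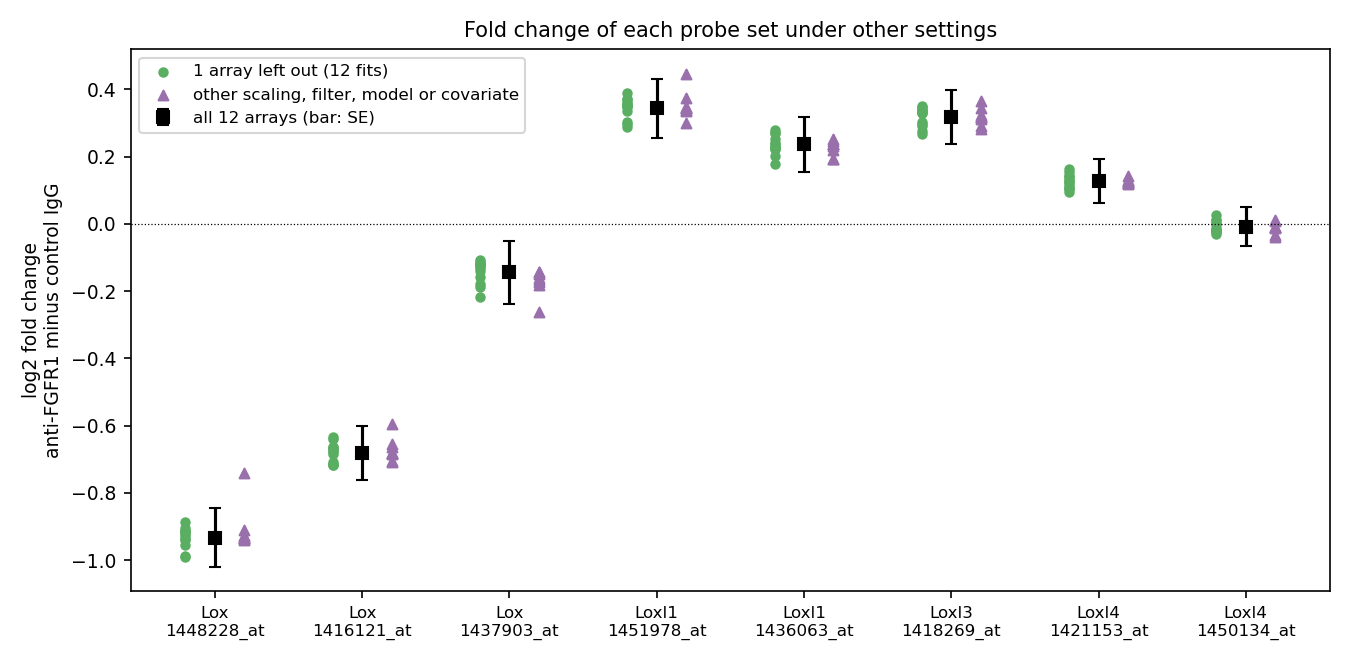
Log2 fold change (anti-FGFR1 minus control IgG) of each family probe set with all 12 arrays (square, bar = SE), with 1 array left out at a time (green points) and under other scalings, filters, models or covariates (purple triangles). The bright Lox probe sets stay between -0.99 and -0.59, and Loxl1 and Loxl3 stay above 0.

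The other genes of matrix assembly and cross-linking were taken from 7 lists that hold 128 different genes, of which 121 had a single-gene probe set. Each gene was read from its brightest probe set, and 20 fell and 13 rose by limma. That is 27.3% called, where 7.21% of all 18193 genes were called so (4.61% lower and 2.61% higher). The shares are not of like genes. Of the 121, 98 had a mean at or above the median of all probe sets. A fit on such bright probe sets alone called 2774, against 2411 over all, although it held fewer probe sets. It called 32 of the 98. The lists were also chosen with earlier results of these data known, so an excess of calls in them was not tested. The median log2 fold change over the 121 was 0.0069, against 0.0091 over all genes, a median over lists that differed in direction.

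Fibrillar collagens, the main substrates of Lox, were mostly higher. Of 11 measured, 3 rose by limma, 0 fell (also 0 at an unadjusted p under 0.05) and 10 lay above 0, the median being 0.25. Col5a1, a chain of type V collagen that starts fibrils, rose from 9.94 ± 0.25 to 10.47 ± 0.21 (SD, n = 6 per group), a log2 difference of 0.52 ± 0.12 (SE, adjusted p = 0.013 by limma). Col5a3 rose by 0.34 ± 0.08 (SE, adjusted p = 0.019 by limma), and Col3a1, the chain of type III collagen, by 0.42 ± 0.12 (SE, adjusted p = 0.047 by limma). With 1 array left out, the call of Col3a1 held only without control IgG replicate 6 or anti-FGFR1 replicate 1 (0.35 to 0.51 over all 12). It was lost on dropping any 1 of the other 10 arrays and under 6 of 12 other settings. Among these settings were arrays centred on their medians (0.42) and the 3' to 5' covariate (0.53). Col5a2 was at 0.34 without passing, although the other of its 2 probe sets was called higher (0.42), and the type I chains Col1a1 and Col1a2 at 0.31 and 0.25, without passing. With the mean of its probe sets, Col5a1 was at 0.39 and no longer called.

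Elastic fibre and microfibril genes were more often lower, with 5 of 19 called lower and 1 higher and a median of -0.07. Eln, which encodes elastin, the other main substrate of the family, fell from 10.02 ± 0.18 to 9.54 ± 0.15 (SD, n = 6 per group), a log2 difference of -0.48 ± 0.09 (SE, adjusted p = 0.0034 by limma), without overlap between the groups and with both of its probe sets called. The microfibril protein Mfap4 (-0.37 ± 0.07, SE, adjusted p = 0.0048 by limma) and vitronectin, Vtn (-0.33 ± 0.05, SE, adjusted p = 0.00053 by limma), also separated the groups. Adamtsl4, which binds fibrillin, fell by 0.35 ± 0.09 on the log2 scale (adjusted p = 0.034 by limma), a call lost on dropping any 1 of 7 arrays, controls 2, 3, 4 and 5 and anti-FGFR1 replicates 1, 3 and 5 (-0.40 to -0.29 over all 12). Adamtsl5 (-0.26) and the fibulin Efemp1 (0.43), the single rise, lie outside the naming rule and were chosen after their values were seen. Their calls were lost on dropping any 1 of 9 and of 10 arrays. With the 3' to 5' covariate the list had 2 falls and 0 rises, and Eln (-0.40) and Mfap4 (-0.30) were not called.

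Among 10 matrix proteins known to bind lysyl oxidases or steer cross-linking, 2 rose and 2 fell. The proteoglycans Lum and Bgn, which regulate collagen fibril growth, rose by 0.76 ± 0.10 (SE, adjusted p = 0.0003 by limma) and 0.55 ± 0.11 (SE, adjusted p = 0.0063 by limma), Bgn on all 3 of its probe sets. Thbs2, a matricellular protein, fell by 0.52 ± 0.12 on the log2 scale (adjusted p = 0.017 by limma), with 1 of its 3 probe sets called. Postn, periostin, which brings Bmp1 to the matrix, fell by 0.31 ± 0.08 on the log2 scale (adjusted p = 0.039 by limma), but kept its call only without control IgG replicate 1 or 4 when 1 array was left out (-0.36 to -0.26). Neither fall was called with the 3' to 5' covariate (-0.35 and -0.21). Fbln5, which guides Loxl1 to elastin and is also in the elastic fibre list, was at -0.07 and did not pass.

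Of 20 basement membrane genes, 3 fell and 4 rose. Col15a1, a collagen at the border of basement membranes, rose from 8.55 ± 0.47 to 9.55 ± 0.16 (SD, n = 6 per group), a log2 difference of 1.00 ± 0.17 (SE, adjusted p = 0.0026 by limma). The laminin chain Lama2 rose by 0.34 ± 0.07 (SE, adjusted p = 0.0076 by limma), whereas the laminin chain Lamb2 fell by 0.47 ± 0.05 on the log2 scale (adjusted p = 0.00011 by limma) and agrin, Agrn, by 0.24 ± 0.05 (adjusted p = 0.0088 by limma). All 4 genes separated the groups, but the mean of the Agrn probe sets was at -0.08 and not called. Called as well, and named after their values were seen, were Pxdn (-0.31), which makes the sulfilimine cross-links of collagen IV, Lamb1 (0.32) and Nid2 (0.50). Pxdn lost its call without anti-FGFR1 replicate 1, Lamb1 without control IgG replicate 3 or anti-FGFR1 replicates 2, 3 or 4, and Nid2 without control IgG replicate 5 or anti-FGFR1 replicates 2, 3 or 5. With the 3' to 5' covariate the list had 2 falls and 1 rise, that of Col15a1 (1.17). The main collagen IV chains Col4a1 and Col4a2 were at 0.04 and -0.07 without passing.

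**Figure D3:**
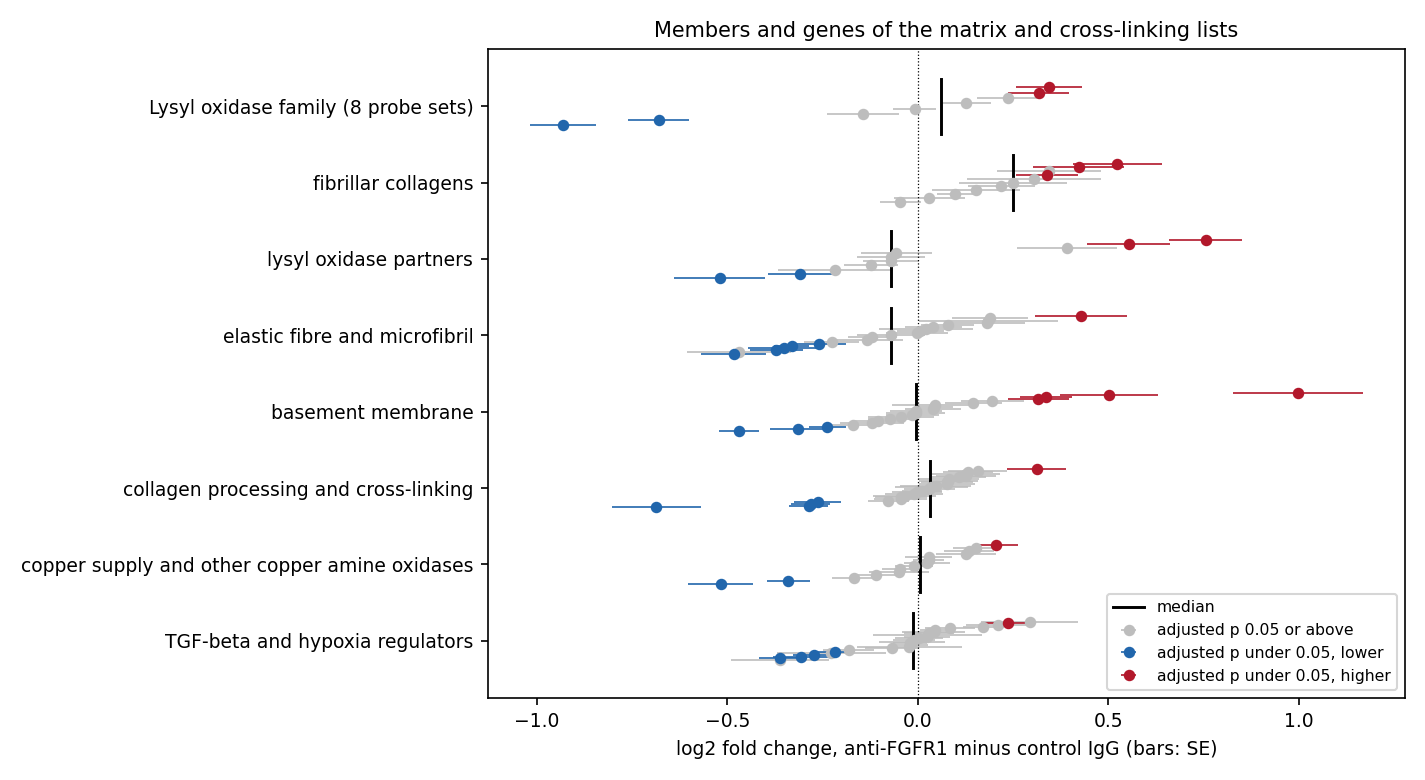
Log2 fold change (anti-FGFR1 minus control IgG, bar = SE) of the 8 family probe sets and of each gene in the 7 matrix and cross-linking lists, blue where called lower, red where called higher and grey otherwise, with a black line at each median. Fibrillar collagens lie mostly above 0 (median 0.25), and both bright Lox probe sets lie at the lower end.

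Enzymes that process collagen were mostly not called: of 24, 4 fell and 1 rose. Pcolce2, an enhancer of procollagen C-proteinases, fell from 7.81 ± 0.22 to 7.13 ± 0.25 (SD, n = 6 per group), a log2 difference of -0.69 ± 0.12 (SE, adjusted p = 0.0026 by limma). The prolyl 3-hydroxylase P3h2 fell by 0.29 ± 0.05 on the log2 scale (adjusted p = 0.0033 by limma), and Tgm2, a transglutaminase that cross-links matrix by another chemistry, by 0.28 ± 0.05 (adjusted p = 0.004 by limma), with 5 of 6 Tgm2 probe sets called lower. P3h4 fell by 0.26 ± 0.06 on the log2 scale (adjusted p = 0.018 by limma). P3h3, named after its value was seen, was the single rise (0.31), a call lost without control IgG replicate 4 or anti-FGFR1 replicates 2, 3 or 5. With the 3' to 5' covariate Tgm2 (-0.26), P3h4 (-0.18) and P3h3 (0.38) were not called. Bmp1, which activates Lox, was at 0.11 ± 0.07, and the lysyl hydroxylases Plod1, Plod2 and Plod3 were at 0.08, 0.13 and -0.08, all without passing.

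In the copper list, 2 of 14 genes fell and 1 rose. The metallothioneins Mt2 and Mt1, which bind copper and zinc, fell by 0.52 ± 0.09 (adjusted p = 0.002 by limma) and 0.34 ± 0.06 (adjusted p = 0.0021 by limma) on the log2 scale, each without overlap between the groups. The mean of the Mt1 probe sets was at -0.15 and not called. Steap3, a metalloreductase, rose by 0.21 ± 0.06 (SE, adjusted p = 0.043 by limma), a call that held only without control IgG replicate 6 when 1 array was left out. Of the 3 Steap3 probe sets 1 was called, and the lowest was at -0.06. Atp7a, the pump that loads copper onto Lox in the secretory pathway, was at 0.13 ± 0.08, and the importer Slc31a1 at 0.02, neither passing. The importer-like Slc31a2 was at -0.17.

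Among 24 TGF-beta and hypoxia genes, pathways known to regulate lysyl oxidases, 4 fell and 1 rose. The receptor Tgfbr2 fell from 11.42 ± 0.11 to 11.06 ± 0.06 (SD, n = 6 per group), a log2 difference of -0.36 ± 0.06 (SE, adjusted p = 0.0014 by limma), on 2 of its 3 probe sets, with the third at 0.08. The ligands Tgfb3 and Bmp2 fell by 0.27 ± 0.06 (adjusted p = 0.0094 by limma) and 0.31 ± 0.07 (adjusted p = 0.019 by limma) on the log2 scale. The Bmp2 probe set was dim, brighter than only 21.2% of all probe sets. The HIF prolyl hydroxylase Egln1 fell by 0.22 ± 0.04 on the log2 scale (adjusted p = 0.0077 by limma). Snai1, named after its value was seen, was the single rise (0.24). Its call was lost on dropping any 1 of 9 arrays and under 8 of 11 other settings (0.15 to 0.24), among them centred arrays (0.23). With the 3' to 5' covariate only Tgfbr2 of these 5 was called. Hif1a was at 0.09, Vegfa at 0.0025, Tgfb1 at 0.03 and Ccn2 at -0.23, and none of these passed.

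The list means of vessel cell markers were also lower after anti-FGFR1, and their relation to Lox from mouse to mouse was not tested. In bulk tissue, fewer cells of a type and less RNA per cell cannot be told apart. Of 12 smooth muscle and pericyte markers, 6 fell by limma and 0 rose (7 and 0 at an unadjusted p under 0.05), and the mean of the list per array ran from 9.692 to 9.859 in controls and from 9.44 to 9.623 after anti-FGFR1. The largest falls were those of the smooth muscle genes Tagln, Acta2 and Myh11, at -0.64, -0.57 and -0.52. Acta2 was called on 1 of its 3 probe sets (up to -0.18) and Myh11 on 1 of 2 (the other at -0.05). Mylk, Pdgfrb and Lmod1 were at 0.03, 0.01 and -0.02, without passing. Of 13 endothelial markers, 8 fell by limma and 0 rose (10 and 0 unadjusted), with list means from 9.603 to 9.855 and from 9.335 to 9.577. Neither list overlapped between the groups, and the part of these cells in the lower Lox values was not tested.

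Of 11 fibroblast and preadipocyte markers, 1 rose and 2 fell, and the list means overlapped, at 8.575 to 8.866 and 8.477 to 8.787. Pdgfra, the receptor that defines these cells, was at 0.62, while the fibroblast markers Pi16 and Dpt were at -0.50 and -0.37. Pdgfra was called on 1 of its 3 probe sets (down to 0.09) and Pi16 on 1 of 2 (the other at 0.06). Of 14 skeletal muscle markers 0 passed limma and 0 had an unadjusted p under 0.05, although all 14 had a fold change below 0 (median -0.71), and list means ran from 9.659 to 11.89 and from 7.04 to 11.73. Without the 2 arrays lowest in muscle markers, Lox was at -0.93 and -0.71 on its bright probe sets, Loxl1 at 0.35 and Loxl3 at 0.32. All 4 were called, which describes the values the family was chosen by. With the 3' to 5' covariate the Lox probe sets were at -0.74 and -0.59, both called, and Loxl1 at 0.45, called.

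**Figure D4:**
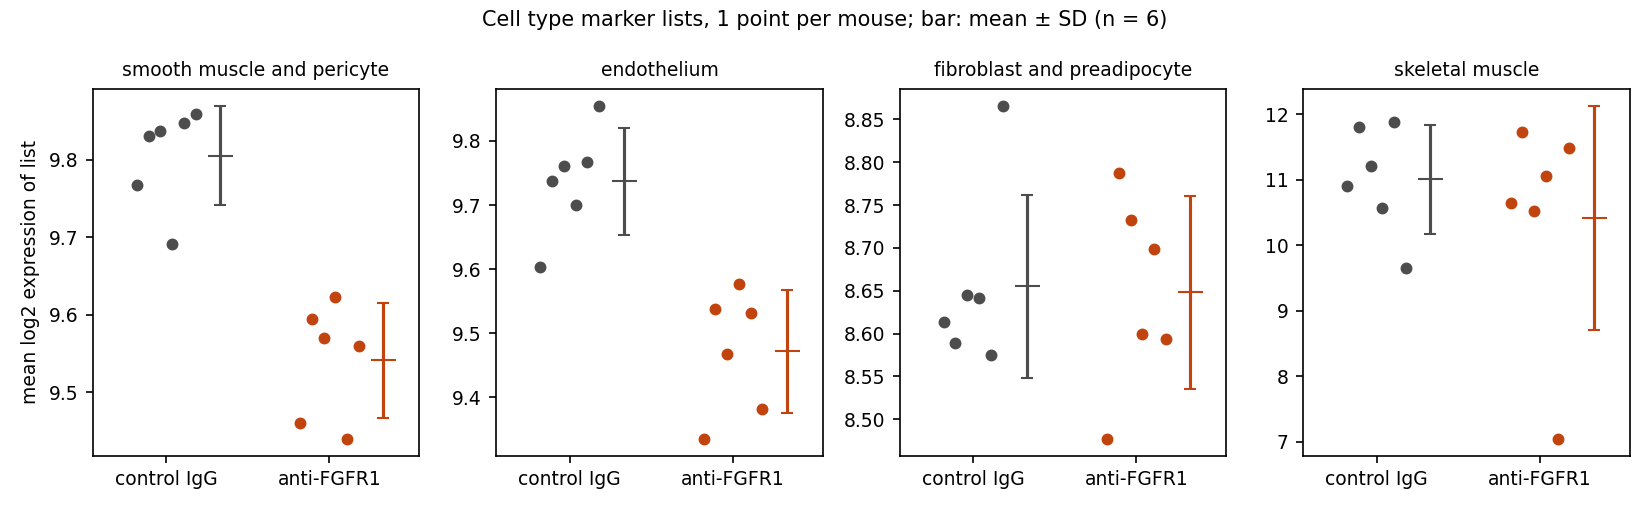
Mean log2 expression of 4 marker lists in each mouse, control IgG in grey and anti-FGFR1 in orange, with mean ± SD (n = 6). The smooth muscle and endothelial means separate the groups, the fibroblast means overlap, and anti-FGFR1 replicate 5 is far below the other arrays in skeletal muscle markers (7.04).

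The genes whose values followed Lox most closely from mouse to mouse, with each group centred on its mean, were Cyb5r1 (r = 0.908), Psma5 (0.898), Tex10 (0.894), Clk2 (0.891) and Trib3 (0.875), the top of 9096 genes compared over 12 arrays. For Loxl1 they were Slc4a2 (0.94), Stx4a (0.932), Mrc2 (0.913), Adgre5 (0.912) and Nufip2 (0.908). No gene stood in both groups of 5, and of the 10 only Trib3 passed between the groups, rising by 0.63 ± 0.12 (SE, adjusted p = 0.0064 by limma), the opposite direction to Lox. Among so many genes and so few arrays these values describe likeness only.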

How the data were processed

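The deposited table holds log2 values for 45101 probe sets on 12 arrays; RMA and limma are named in the submitters' processing notes, without versions. RMA pulls small changes of dim probe sets toward 0, and arrays give no counts, so precision rests on the number of arrays. Gene names came from the platform's probe table and Entrez identifiers (RefSeq genes of GRCm38.p6; 34741 of 34945 single-gene probe sets matched); 64 control probe sets, 932 with several genes and 9160 with no entry stayed out. The values were compared as deposited with limma 3.58.1 in R 4.3.3 (lmFit, eBayes, two-sided, Benjamini-Hochberg over all single-gene probe sets, threshold 0.05), without covariates; figures used matplotlib 3.10.9. The fit was tested on simulated data. Other fits used another normalization, filter, summary, covariate or block, or left out arrays. Family and lists were chosen with earlier results of these data known. The 4 genes of each list with the smallest p were named, and 5 genes most like Lox and Loxl1. Replicates are separate mice, per the labels.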

Additional observations from a re-analysis of the deposited data

Results flagged for a closer look

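In 106 groups of 6 arrays (53 probe sets, both groups), 4 had 1 array far from the other 5 by the ratio of its gap to the group's range, and chance marks about 5% of groups. Lox on probe set 1416121_at was 11.4 in control IgG replicate 1, against 11.56 to 11.65 in the other controls. Efemp1 was 7.937 on the same array, against 8.394 to 8.637, and Tex10 was 8.983, against 9.234 to 9.307. Tex10 was named because it followed Lox over these arrays, so its low value there is not a separate sign. Tgfb3 was 8.43 in control IgG replicate 6, against 8.148 to 8.227. Control IgG replicate 1 was also the lowest control in the mean of the brown adipocyte markers, at 11.62 against 11.89 to 12 in the others. Without it the bright Lox probe sets were at -0.99 and -0.71.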

How the results depend on the processing

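The alternatives were run for 43 fold changes, those of the family and of the named or called genes of the matrix lists, and among these no call changed direction; the cell type markers and Trib3 were not run. The count of family probe sets called lower stayed at 2, except that it was 1 with 1 probe set per gene or with the mean of the probe sets of each gene, where Lox counts once. The count called higher was 1 with the 3' to 5' covariate, 0 at an adjusted p under 0.01 and 0 to 3 with 1 array left out. Over all 34945 probe sets there were 2411 calls. Fits over 18193 genes called 1461 with 1 probe set per gene and 1486 with the mean of the probe sets. These 2 counts have a smaller base than the 2411 and are not losses against it. Over all probe sets, the 2411 calls became 950 with the 3' to 5' covariate and 934 at an adjusted p under 0.01. They became 1596 without the 2 arrays lowest in muscle markers (chosen after seeing the data) and 1700 to 2903 with 1 array left out. The 33 called genes of the lists became 14 with the covariate, 17 at an adjusted p under 0.01 and 23 to 35 over the remaining settings. The cause of these shifts was not tested. Lox averaged over its 3 probe sets was at -0.59, a mean that includes the dim one. Both groups share replicate numbers in the labels, but same-numbered arrays correlated at -0.2107 to 0.2776 and 3 of 6 correlated best with their own number; with the replicate number as a block 2301 probe sets were called, and the family counts were 2 lower and 2 higher. With a second quantile normalization 59% of calls were lower, against 68.9%. Only 6 arrays per group set the precision, and RMA compresses changes of dim probe sets such as those of Loxl4.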

Other observations

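Of 14 macrophage markers 3 rose, Cd5l by 0.60, Adgre1 by 0.63 and Csf1r by 0.37, and the list means overlapped between the groups (9.745 to 10.39 and 9.97 to 10.38). Of 7 mesothelial markers, 5 of them below the overall array median, Krt19 rose, by 0.31, on the brightest probe set of each gene, and 1 of the 4 probe sets of Upk1b was also called higher (0.26). Of the 12 brown adipocyte markers the elongase gene Elovl3 rose (0.76) and Zic1, a lineage factor of brown fat, fell (-0.23), while 10 did not pass on their brightest probe set. Of these 10, Ppargc1a was called higher on 3 of its 5 probe sets (up to 0.51), Ebf2 higher on 2 of 3 (up to 0.37) and Prdm16 lower on 2 of 4 (down to -0.35). Elovl3 was 10.1 in control IgG replicate 1, against 10.99 to 11.52 in the other controls. Its rise was not refitted without that array.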
